A study of Mus musculus with 9 samples.

Results

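Long intergenic noncoding RNAs (lincRNAs) are long transcripts from genes of their own that lie between protein-coding genes and have no annotated protein product. Of 54532 genes in the deposited table of mouse right ventricle, 5559 carry the class lincRNA, and 134 of these were taken as expressed. The members were chosen by measured values, a mean of at least 1 FPKM (fragments scaled to gene length and to library size) over the 9 libraries, and by a chromosome other than X or Y, and a name other than Gas5, H19, Meg3, Rian or one of the Snhg genes. Without the limits on chromosome and name there were 141, of which 2 lay on X or Y and 5 were left out by name. Another 3801 lincRNAs were at 0 in every library, and 1617 lay above 0 but under 1 FPKM.

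All mice were wild-type C57BL/6, placed by the labels at postnatal day 7, and RNA came from right ventricular myocardium. The 3 groups had 3 libraries each: Sham, a sham operation; VO, fistula surgery, which puts a volume overload on the heart; and CsA, the fistula with an injection of cyclosporin A, which blocks the phosphatase calcineurin. The operation was done at that age. Cyclosporin A without the fistula was not analysed here. The labels do not say whether each library came from a separate mouse, when the tissue was taken after surgery, or the dose, so p-values cover no more than the spread among these libraries, part of which can be technical.

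LincRNAs work mostly as RNA. Some stay in the nucleus and hold proteins in place, as Neat1 does when it builds paraspeckles, the nuclear bodies that retain certain RNAs and proteins. Others act in the cytoplasm by binding proteins or microRNAs, and many are transcribed next to a protein-coding gene, sometimes away from the same start region. In the heart, noncoding RNAs of this kind have been described in lineage choice and in hypertrophy.

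Some libraries stood apart from their groups. Libraries held 12046288 to 15986747 fragments assigned to genes. In VO 3, mitochondrially encoded genes took 11.01% of fragments, against 22.18% to 26.34% elsewhere, and the 5 erythroid markers summed to 2038 FPKM, against 591 to 1039 FPKM. The 5 atrial markers, led by the atrial myosin Myl7, summed to 559 and 586 FPKM in Sham 1 and Sham 3 and to 144.7 FPKM in CsA 3, and lay between 2.10 and 23.0 FPKM in the other 6 libraries. Sex was not balanced, since the Y-linked gene Ddx3y was found in Sham 2 alone (18.6 FPKM). The 9 ventricular cardiomyocyte markers were above 0 in every library and summed to 9377 to 16400 FPKM. In whole tissue, fewer cells of a type and less RNA per cell cannot be told apart.

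The 134 lincRNAs covered a wide range of levels, and a few RNAs made up much of the total. Their means ran from 77.7 FPKM for 1700020I14Rik down to the threshold, with 14 at 10 FPKM or more, 58 from 2 to under 10 and 62 from 1 to under 2. The 4 highest held 31.6% of the summed lincRNA level and the 8 highest 44.8%. Just inside the threshold were Chaer1 at 1.01 FPKM and Gm30262 at 1.01 FPKM, and just outside were Gm20619 at 0.980 FPKM and Gm16973 at 0.969 FPKM. Of the 134, 26 had a mean under 1 FPKM in at least 1 group, so their place on the list depended on the other groups. All 134 entered the test, limma on log2(FPKM + 1) of the 13477 genes that averaged 0.5 FPKM or more, with p-values adjusted over all of these genes by the Benjamini-Hochberg method.

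**Figure D1:**
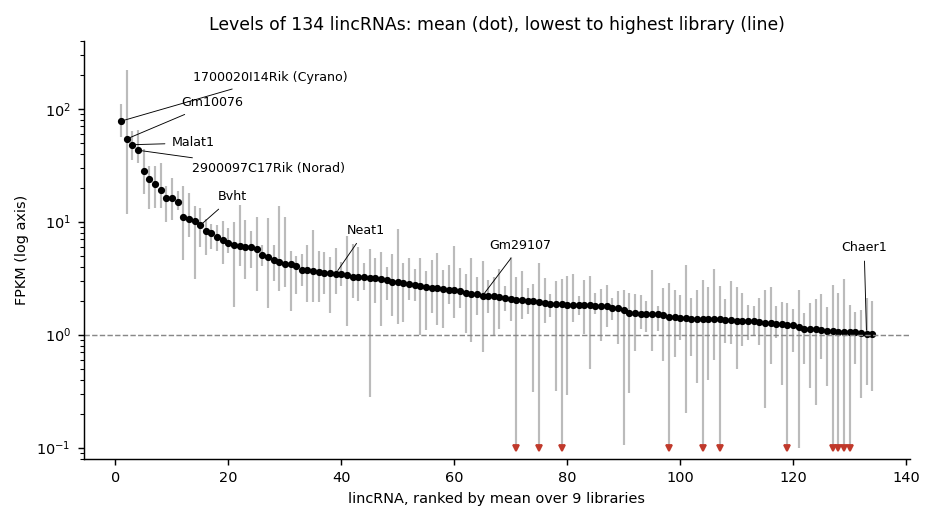
Each of the 134 lincRNAs by rank (x axis) and FPKM on a log axis (y axis); dots are means over the 9 libraries, grey lines run from the lowest to the highest library, red triangles mark lincRNAs at 0 in a library and the dashed line is the threshold of 1 FPKM. Levels fall steeply over the first 14 ranks, and 11 lincRNAs, all at rank 71 or beyond, reach 0 somewhere.

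Counts behind these levels were small for many members. Summed over the 9 libraries, a lincRNA had a median of 437 fragments, from 42 to 80484, with 12 under 100 fragments and 32 at 1000 or more. At least 1 fragment was found in every library for 123 lincRNAs. Of the 11 others, 9 were at 0 in VO 3, and 8 of these only there. VO 3 had fewer genes above 0 in all, 17003 against 19619 to 20479 in the other libraries. The coefficient of variation over all 9 libraries had a median of 35.5%, from 12.4% for Gm34934 to 120.5% for Gm10076, and the highest library stood a median of 2.99 times above the lowest in the 123.

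As transcripts the lincRNAs were shorter and less spliced than the coding genes measured beside them. Their median length was 1342 bases and their median exon number 2, against 4440 bases and 8 exons for the 11793 tested protein-coding genes. A single exon was annotated for 29 of 134 (21.6%), against 5.55% of the coding genes. Median GC content was 46.6% against 49.7%, and the median of the mean level was 2.17 FPKM against 5.001 FPKM. The lincRNAs were chosen at a mean of 1 FPKM or more and these coding genes at 0.5 FPKM or more. For the 10661 coding genes at 1 FPKM or more the median level was 5.83 FPKM. In spite of their class, 48 lincRNAs overlapped another annotated gene, 13 of them a protein-coding gene. An overlap on the same strand was found for 20 and on the opposite strand for 35, and the sources used here do not say whether counting used strand, so reads of overlapping partners cannot be told apart. RefSeq held 91 of the 134 by symbol or synonym and classed 78 as long noncoding RNA, 11 as protein coding and 2 as pseudogenes.

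The highest lincRNA was 1700020I14Rik (chr2:119594297-119607502, + strand, GRCm38), known as Cyrano and listed by RefSeq as Oip5os1. Cyrano carries an unusually long match to the microRNA miR-7 and is known for driving that microRNA's degradation. The site is shown with its microRNA because it is the feature this RNA is known for. Capitals in the site mark the bases that pair with miR-7a-5p, 13 and 8 of them on either side of a short bulge, and capitals in the microRNA mark its seed (bases 2 to 8). The site lies at chr2:119602135-119602162, and the 8300-base transcript held 2 matches to the seed in all.
1700020I14Rik miR-7 site: gaACAACAAAATCACcaatGTCTTCCAt
mmu-miR-7a-5p: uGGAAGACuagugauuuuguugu

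Cyrano stood at 73.0, 75.0 and 73.0 FPKM in Sham, 110.1, 73.8 and 56.3 FPKM in VO and 91.9, 74.2 and 72.0 FPKM in CsA. The Sham libraries lay close together, and the VO libraries held both the highest and the lowest of the 9. VO minus Sham was 0.07 ± 0.234 (SE) on the log2(FPKM + 1) scale (limma adjusted p = 0.878). Small RNAs, miR-7 included, were not analysed here.

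2900097C17Rik (chr2:156388065-156392979, - strand), the mouse Norad, was the fourth highest. Norad is a cytoplasmic RNA with many copies of the motif that Pumilio proteins bind, and it is known for holding these repressors. The stretch at chr2:156390517-156390544 shows a pair of these motifs side by side, with TGTANATA in capitals.
2900097C17Rik Pumilio motifs: ctatgcTGTATATAtTGTACATActgga

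The 4915-base Norad transcript held 11 matches to TGTANATA on its own strand, where 108 of the 134 lincRNAs held none, 23 held 1 and Neat1 held 4. Per kilobase Norad held 2.24 matches, below Gm45353 (3.97) and Gm49207 (3.58), short transcripts of 252 and 279 bases with 1 match each. Norad stood at 40.3, 36.1 and 41.5 FPKM in Sham, 65.2, 40.2 and 50.1 FPKM in VO and 39.9, 40.1 and 32.9 FPKM in CsA. VO 1 was the highest library, VO 2 lay within the range of Sham, and every CsA library was below every VO library by a margin as small as that between 40.1 and 40.2 FPKM. Neither VO minus Sham (log2 0.37 ± 0.192, limma adjusted p = 0.233) nor CsA minus VO (log2 -0.43 ± 0.192, adjusted p = 0.303) passed the test.

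Malat1 (chr19:5795690-5802672, - strand) and Neat1 (chr19:5824708-5845478, - strand) are neighbours on chromosome 19. Malat1 gathers in nuclear speckles, and Neat1 is the scaffold of paraspeckles. Malat1 and the long form of Neat1 lack a usual poly(A) tail, while the short form of Neat1 has one, and the FPKM do not separate these forms. The ends without a tail are cut by RNase P and protected by a triple helix, in which a pair of U-rich motifs embrace an A-rich tract. These stretches are shown because they hold the parts of that helix. Capitals mark the U-rich motifs (written with T) and the A-rich tract, in the Malat1 stretch at chr19:5795986-5796071 and at the Neat1 3' end at chr19:5824708-5824803.
Malat1 3' stretch: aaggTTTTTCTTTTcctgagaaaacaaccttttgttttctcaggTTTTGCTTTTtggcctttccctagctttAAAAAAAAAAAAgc
Neat1 3' end: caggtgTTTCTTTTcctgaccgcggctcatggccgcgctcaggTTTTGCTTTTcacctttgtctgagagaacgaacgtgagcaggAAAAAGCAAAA

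The 10 letters of the second U-rich motif, the same in both RNAs, were found on the transcript strand of 6 of 134 lincRNAs. The first motif was found in 11 as written in Malat1 and in 28 as written in Neat1, and no search was made for the motifs in combination. Malat1 stood at 44.1, 45.6 and 35.1 FPKM in Sham, 54.2, 63.2 and 43.5 FPKM in VO and 54.2, 51.8 and 40.7 FPKM in CsA. The groups overlapped, with VO 2 the highest and Sham 3 the lowest (VO minus Sham log2 0.35 ± 0.195, limma adjusted p = 0.256).

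Neat1 stood at 2.69, 3.32 and 3.32 FPKM in Sham, 3.84, 4.57 and 5.87 FPKM in VO and 2.44, 2.94 and 2.30 FPKM in CsA. All 3 VO libraries lay above all libraries of both other groups, with VO 3 the highest. Its log2 difference was 0.48 ± 0.16 for VO minus Sham (limma adjusted p = 0.0941) and -0.68 ± 0.16 for CsA minus VO (unadjusted p = 0.00181, adjusted p = 0.204). Neither passed the test over all genes. Per kilobase, Malat1 was at 41.6 ± 5.67 FPKM in Sham and Neat1 at 3.11 ± 0.36 FPKM (SD, n = 3).

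**Figure D2:**
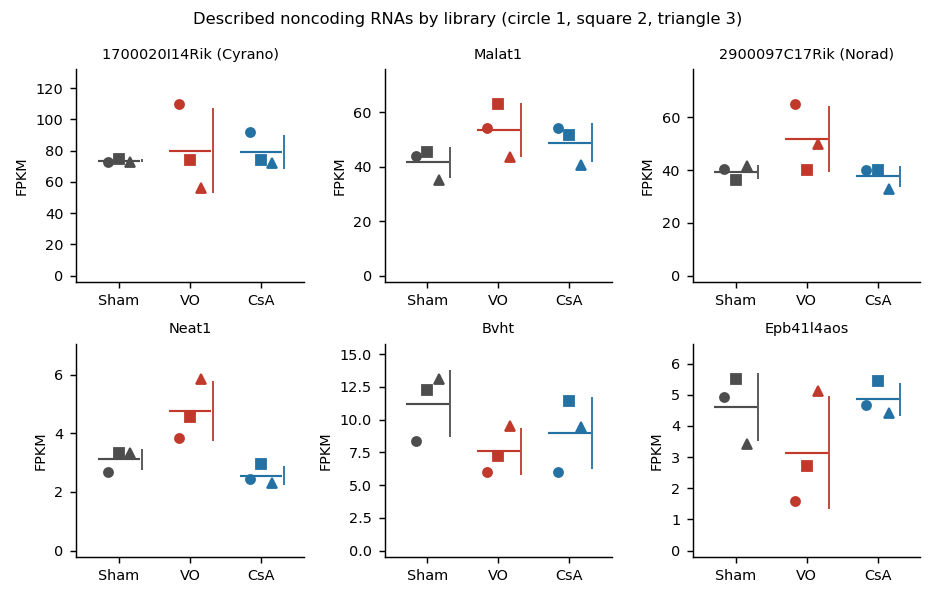
FPKM (y axis, linear from 0) in each library of Sham, VO and CsA (x axis) for 6 lincRNAs with a described role; symbols are replicates 1 to 3, horizontal lines are group means and vertical lines the mean ± SD. Only Neat1 has all VO libraries above all others (3.84 to 5.87 against 2.30 to 3.32 FPKM).

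Bvht, Braveheart, is an RNA known for its part in forming the cardiac lineage. It stood at 8.34, 12.2 and 13.1 FPKM in Sham, 6.01, 7.21 and 9.54 FPKM in VO and 6.00, 11.4 and 9.48 FPKM in CsA. The groups overlapped, and VO minus Sham was -0.51 ± 0.254 on the log2 scale (limma adjusted p = 0.213). Chaer1, an RNA known for binding the Polycomb complex in hypertrophy, was near the threshold at 1.37, 2.10 and 0.356 FPKM in Sham, 1.35, 0.476 and 0.535 FPKM in VO and 1.16, 0.621 and 1.17 FPKM in CsA. With 3 to 19 fragments per library, Chaer1 varied more within Sham than between the groups. Epb41l4aos stood at 4.94, 5.52 and 3.41 FPKM in Sham, 1.61, 2.70 and 5.13 FPKM in VO and 4.68, 5.45 and 4.43 FPKM in CsA, with VO 3 apart from the other VO libraries.

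Of the 8 highest lincRNAs, RefSeq classes 3 as something other than a long noncoding RNA. Gm10076, a single-exon gene of 384 bases, is listed there as a pseudogene, so reads of near-identical copies may be counted in it and its values are uncertain. It stood at 22.5, 11.8 and 48.6 FPKM in Sham, 48.2, 12.7 and 221 FPKM in VO and 30.1, 66.7 and 24.8 FPKM in CsA. VO 3 alone set the group mean: VO minus Sham was 1.11 ± 0.886 on the log2 scale with VO 3 and 0.08 without it (limma adjusted p = 0.432 and 0.944). Lsmem2 and 1810058I24Rik are protein coding in RefSeq. The latter encodes mitoregulin, a small protein of the inner mitochondrial membrane, and stood at 22.1, 24.8 and 22.7 FPKM in Sham, 13.3, 16.8 and 31.0 FPKM in VO and 18.7, 22.9 and 20.7 FPKM in CsA. Here too VO 3 lay on the other side of Sham from VO 1 and VO 2. Without VO 3 mitoregulin passed the test as lower in VO (log2 -0.60, limma adjusted p = 0.0366), and with it VO minus Sham was -0.26 ± 0.26 (adjusted p = 0.531). Lsmem2 stood at 16.95 to 30.9 FPKM in Sham, 13.0 to 29.8 FPKM in VO and 22.5 to 25.7 FPKM in CsA.

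The others of the 8 highest, Gm44386 and 4930429F24Rik, did not pass in any comparison. Gm44386 had means of 29.6 ± 0.65, 28.4 ± 13.6 and 27.1 ± 7.76 FPKM in Sham, VO and CsA (SD, n = 3). 4930429F24Rik had means of 16.9 ± 2.25, 23.8 ± 8.30 and 16.9 ± 3.29 FPKM, with VO 1 at 33.4 FPKM. Gm26917, a GC-rich single-exon RNA (69.1% GC), lay between 1.95 and 5.54 FPKM, both extremes in VO, and its VO minus Sham difference changed sign from -0.28 ± 0.263 to 0.53 ± 0.254 when the GC trend of each library, a smooth curve of level on GC content, was removed.

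VO was compared with Sham to ask which of these RNAs differ after the fistula. In limma, 6 of 134 lincRNAs passed an adjusted p of 0.05, which is 4.48% where the share over all 13477 tested genes was 4.76%. Gm29107 and BC002059 rose, 2 of 134 beside a background of 2.04%, and Gm12319, 4632428C04Rik, Gm38399 and Gm32688 fell, 4 of 134 beside 2.72%. For 31 lincRNAs (23.1%, over all genes 33.1%) VO and Sham libraries had no overlap, 15 with VO higher (over all genes 16.2%) and 16 with VO lower (17%). At an unadjusted p of 0.05 there were 27 (20.1%, over all genes 29.3%), 14 higher (over all genes 14%) and 13 lower (15.3%). A log2 difference of at least 1 in either direction was found for 7 (5.22%, over all genes 4.31%). The median log2 difference was 0.03, with 71 of 134 above 0 (53.0%, over all genes 50.4% and a median of 0.00).

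Gm29107 (chr1:23293729-23294075, + strand) is a single-exon gene of 347 bases with the lowest GC content of the 134, at 25.6%. It stood at 1.58, 1.66 and 1.33 FPKM in Sham, 3.98, 3.80 and 4.51 FPKM in VO and 1.45, 0.699 and 0.878 FPKM in CsA. These values rest on 6 to 8 fragments per library in Sham, 17 to 27 in VO and 3 to 6 in CsA. Every VO library lay above every library of the other groups, and the log2 difference from Sham was 1.01 ± 0.16 (limma adjusted p = 0.0382). It was 0.30 ± 0.267 with the GC trend removed (adjusted p = 0.537) and -0.05 with VO 3 left out as well.

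BC002059 (chr17:16951539-16974157, + strand), 39.0% GC, stood at 1.11, 1.72 and 1.51 FPKM in Sham, 3.78, 2.60 and 3.19 FPKM in VO and 2.08, 1.51 and 1.86 FPKM in CsA. All VO libraries were above all others, and the log2 difference from Sham was 0.77 ± 0.162 (limma adjusted p = 0.0408). With the GC trend removed it was 0.43 ± 0.139 (adjusted p = 0.139). A second lincRNA of the same region of chromosome 17, AC129328.1 (chr17:17234872-17266063, 37.7% GC), did not pass at 1.68, 2.07 and 1.56 FPKM in Sham and 4.62, 3.17 and 2.50 FPKM in VO (log2 0.65 ± 0.184, adjusted p = 0.0628). For it too the 2 groups did not overlap.

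4632428C04Rik (chr16:30008667-30021430, + strand) had the tightest groups of the 4 that fell. It stood at 2.29, 2.43 and 2.26 FPKM in Sham, 1.34, 0.830 and 1.27 FPKM in VO and 1.76, 1.76 and 1.66 FPKM in CsA. No pair of groups overlapped, with CsA between VO and Sham, and 26 to 82 fragments stood behind each value. Its log2 difference from Sham was -0.64 ± 0.135 in VO (limma adjusted p = 0.0408), and the size of the difference was kept with the GC trend removed (-0.61 ± 0.133, adjusted p = 0.0852). Sham 2, low in atrial markers and the only library with Ddx3y, was the highest Sham library. It was also the highest of Sham for Gm29107, BC002059, Gm12319 and Gm32688, and the lowest for Gm38399. The part of atrial tissue or sex in these values was not tested.

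Gm12319 (chr11:70654741-70656493, - strand) lies 97 bases from the actin-binding protein gene Pfn1. It stood at 10.6, 11.1 and 4.76 FPKM in Sham, 2.46, 3.69 and 2.44 FPKM in VO and 6.34, 4.30 and 6.19 FPKM in CsA. VO was below both other groups in every library, while Sham 3 lay within the range of CsA. The log2 difference of VO from Sham was -1.28 ± 0.284 (limma adjusted p = 0.0408), and -1.31 ± 0.28 with the GC trend removed (adjusted p = 0.0851). Pfn1 itself stood at 37.5 to 53.6 FPKM in Sham and 26.4 to 85.6 FPKM in VO.

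Gm32688 (chr10:93317403-93322725, + strand) starts 6268 bases from the ETS factor gene Elk3, in the opposite direction. It stood at 1.29, 1.84 and 1.06 FPKM in Sham, 0.322, 0 and 0.595 FPKM in VO and 1.15, 1.80 and 1.43 FPKM in CsA. VO was the lowest group in every library and CsA overlapped Sham, on 75 fragments over all 9 libraries. The log2 difference from Sham was -0.89 ± 0.206 (limma adjusted p = 0.0454), and -0.96 ± 0.204 with the GC trend removed (adjusted p = 0.0851). Gm38399 (chr1:135606447-135688105, - strand) overlaps Nav1, a gene of microtubule guidance, on the same strand, and RefSeq lists the name as a synonym of Nav1, so its reads cannot be told from those of that gene. It stood at 2.04, 1.31 and 2.35 FPKM in Sham, 0.305, 0.424 and 0 FPKM in VO and 0.917, 1.77 and 0.417 FPKM in CsA (VO minus Sham log2 -1.22 ± 0.259, limma adjusted p = 0.0408). With the GC trend removed the difference was -0.93 ± 0.274 (adjusted p = 0.123), and over the settings tried it ran from -3.87 to -0.69. Nav1 was at 4.14 to 4.62 FPKM in Sham and 2.14 to 3.75 FPKM in VO (log2 -0.40 ± 0.176, adjusted p = 0.165). Gm38399 and Gm32688 had VO means under 1 FPKM, so their Sham and CsA libraries carried them past the threshold of the list.

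**Figure D3:**
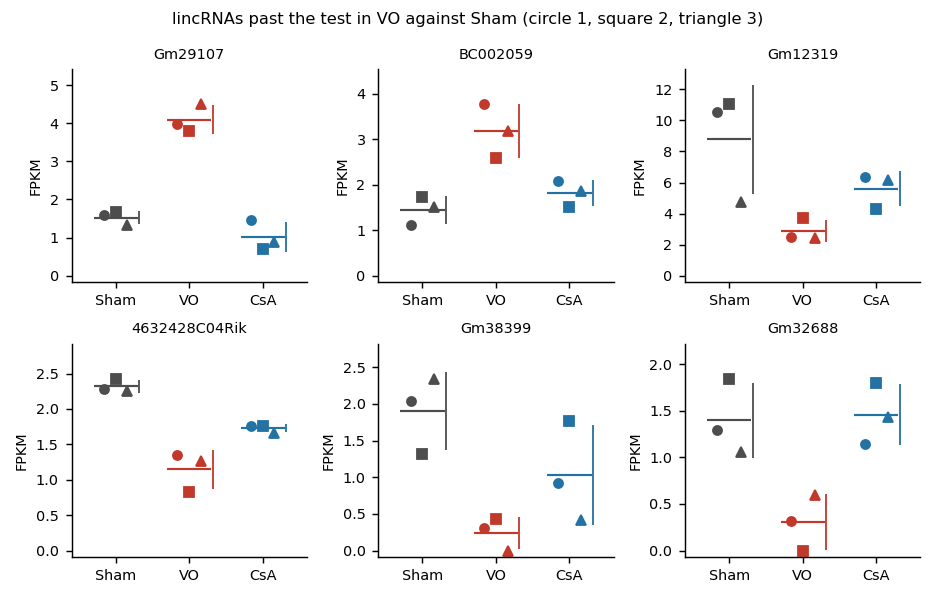
FPKM (y axis, linear from 0) by library in Sham, VO and CsA (x axis) for the 6 lincRNAs past the limma test in VO against Sham; symbols are replicates 1 to 3, horizontal lines group means and vertical lines the mean ± SD. In all 6 the VO libraries lie apart from the Sham libraries, above them for Gm29107 and BC002059 and below them for the rest.

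The count of 6 depended on single libraries and on the handling of GC, as did the count over all genes. The lincRNA count was 0 with the GC trend removed and without Sham 3, VO 1, CsA 1 or CsA 3 (over all genes 0% in each). Without Sham 1 it was 0 too (over all genes 0.00742%). It was 1 without Sham 2 (0.746%, over all genes 0.512%), where Eprn passed and none of the 6 did. Without VO 3 it was 17, of which 9 were higher and 8 lower, with all 6 among them. That is 12.7% of the lincRNAs, where the share of all genes in the same setting was 15.1%.

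RefSeq holds a start region for 74 of the 134 lincRNAs under their own symbol, and for 3 of the 6 that passed. These 3 are shown because they are the start regions of lincRNAs that differed in VO, each from 250 bases before to 50 after the start (GRCm38.p6, all on the + strand). Capitals mark, on either strand, the TATA box TATAAA, the GC box GGGCGG, the CCAAT box CCAAT and TGGAAA, the core of sites for NFAT, the factor that calcineurin activates.
BC002059 promoter: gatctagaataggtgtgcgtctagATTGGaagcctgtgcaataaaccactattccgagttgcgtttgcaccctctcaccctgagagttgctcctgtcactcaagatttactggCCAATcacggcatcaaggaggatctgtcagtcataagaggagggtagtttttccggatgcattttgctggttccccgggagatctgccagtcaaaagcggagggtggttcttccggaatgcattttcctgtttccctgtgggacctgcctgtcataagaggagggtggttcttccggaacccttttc
4632428C04Rik promoter: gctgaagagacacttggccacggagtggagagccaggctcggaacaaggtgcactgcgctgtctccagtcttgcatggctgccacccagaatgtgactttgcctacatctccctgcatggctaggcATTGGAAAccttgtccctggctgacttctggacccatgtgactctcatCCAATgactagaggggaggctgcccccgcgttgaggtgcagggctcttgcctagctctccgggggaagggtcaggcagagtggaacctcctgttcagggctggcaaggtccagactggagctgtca
Gm32688 promoter: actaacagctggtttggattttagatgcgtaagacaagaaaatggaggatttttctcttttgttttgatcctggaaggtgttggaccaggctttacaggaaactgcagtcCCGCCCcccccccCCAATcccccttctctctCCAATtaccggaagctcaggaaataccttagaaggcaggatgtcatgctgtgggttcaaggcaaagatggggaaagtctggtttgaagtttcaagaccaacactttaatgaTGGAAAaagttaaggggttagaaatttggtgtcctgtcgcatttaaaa

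The regions are chr17:16951286-16951585 for BC002059, chr16:30008417-30008716 for 4632428C04Rik and chr10:93317153-93317452 for Gm32688. Each held 2 CCAAT matches. At least 1 was present in 37.4% of the 32851 RefSeq start regions of this length, and the share with 2 was not counted. TGGAAA was present once in 4632428C04Rik, where it overlaps a CCAAT match, and once in Gm32688, and 21.4% of all start regions hold it. GGGCGG was present once in Gm32688 (35.7% of all), and TATAAA in none of the 3 (13.6% of all). These are matches of letters in a window and show nothing of binding.

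Fold changes of the lincRNAs went with their GC content, as those of all genes did. Of the 45 lincRNAs lowest in GC (25.6% to 44.3%), 36 were above 0 in VO minus Sham, with a median log2 difference of 0.21. Over all tested genes in that GC range 80.9% were above 0 and the median was 0.28. Of the 45 highest in GC (49.1% to 75.5%), 16 were above 0 with a median of -0.18, where all genes gave 30.9% and -0.20. The 44 between them had 19 above 0 and a median of -0.05, where all genes gave 61.8% and 0.09. With the GC trend of each library removed, the medians from low to high GC were -0.03, -0.17 and 0.03, and 28 of 134 lincRNAs changed sign. The size of the difference was smaller in 68 of 134.

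**Figure D4:**
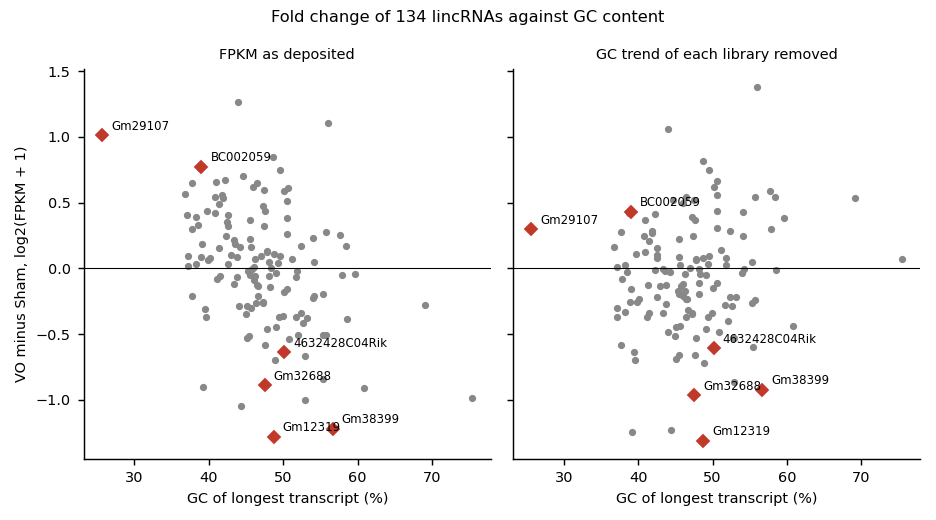
VO minus Sham on the log2(FPKM + 1) scale (y axis) against GC content of the longest transcript in percent (x axis) for the 134 lincRNAs, from FPKM as deposited (left) and with the GC trend of each library removed (right); red diamonds are the 6 past the test in the left panel. Gm29107, at 25.6% GC, moves from 1.01 to 0.30, and Gm12319, at 48.7% GC, stays near -1.3.

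Other lincRNAs lay just short of the test. Eprn stood at 1.73, 5.12 and 1.89 FPKM in Sham, 5.96, 7.06 and 10.9 FPKM in VO and 3.98, 2.72 and 4.20 FPKM in CsA. VO was above both groups in every library, and Sham 2 lay apart from the other Sham libraries (VO minus Sham log2 1.26 ± 0.319, limma adjusted p = 0.0516, and 1.06 ± 0.32 with the GC trend removed). Gm5860 stood at 1.90 to 3.13 FPKM in Sham, 4.00 to 4.81 FPKM in VO and 2.26 to 3.03 FPKM in CsA (log2 0.66 ± 0.161, adjusted p = 0.0502). Both were chosen after their values were seen. When VO 3 was left out, 2010320M18Rik, a lincRNA 102 bases from Pik3r2, passed as lower (log2 -0.65, adjusted p = 0.0337), with VO 3 at 8.22 FPKM against 3.92 and 4.53 FPKM in VO 1 and VO 2 and 6.25 to 8.05 FPKM in Sham. Epb41l4aos passed in the same setting (log2 -0.84, adjusted p = 0.0401). In VO 3 the mitochondrial share was low and the erythroid sum high, as given above, and their part in these values was not tested.

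CsA was compared with VO to ask what differed with the drug after the same operation. In limma, 0 of 134 lincRNAs passed, as did 0 of all genes (0%), and limma's voom method, run on fragment counts recovered from the FPKM, called 0 too. At an unadjusted p of 0.05 there were 24 (17.9%, over all genes 16.5%), 12 higher (8.96%, over all genes 8.64%) and 12 lower (8.96%, over all genes 7.82%). The groups did not overlap for 24 lincRNAs (17.9%, over all genes 21.2%), 8 higher in CsA (5.97%, over all genes 10.9%) and 16 lower (11.9%, over all genes 10.3%). The median log2 difference was -0.03, with 58 of 134 above 0 (43.3%, over all genes 49.8%). With the GC trend removed the median was 0.01. A log2 difference of at least 1 was found for 3 (2.24%, over all genes 1.59%).

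The 6 lincRNAs with the smallest p in CsA against VO were Gm29107, Gm32688, Neat1, Gm15706, BC002059 and Gm8066, and none passed. Gm29107 differed by -1.36 ± 0.16 on the log2 scale (unadjusted p = 9.02e-06, limma adjusted p = 0.122), and by -0.85 ± 0.267 with the GC trend removed. Gm32688 differed by 0.93 ± 0.206 and BC002059 by -0.57 ± 0.162 (adjusted p = 0.204 and 0.211). This comparison and VO against Sham share the VO libraries, so their values are set side by side without a test of their relation.

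Gm15706 stood at 0.839, 1.44 and 1.37 FPKM in Sham, 0.349, 0.690 and 0.516 FPKM in VO and 1.77, 1.53 and 1.19 FPKM in CsA, on 5 to 19 fragments per library. All VO libraries lay below all others (CsA minus VO log2 0.72 ± 0.169, limma adjusted p = 0.204, and VO minus Sham -0.54 ± 0.169, adjusted p = 0.0773). All VO libraries were also under 1 FPKM, so Sham and CsA carried Gm15706 past the threshold of the list.

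Gm8066 overlaps the erythropoietin gene Epo on the other strand and has the highest GC content of the 134, at 75.5%. It stood at 1.13, 1.19 and 2.55 FPKM in Sham, 0, 1.12 and 0 FPKM in VO and 1.04, 2.67 and 2.67 FPKM in CsA, on 0 to 17 fragments per library. CsA minus VO was 1.23 ± 0.353 on the log2 scale (limma adjusted p = 0.214), and 0.44 ± 0.273 with the GC trend removed. Its VO mean was under 1 FPKM, so Sham and CsA carried it past the threshold of the list.

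CsA was also compared with Sham, which asks how far the operated and treated ventricle stood from the control. In limma 0 of 134 lincRNAs passed (all genes 0%), and 0 did at an unadjusted p of 0.05 (all genes 1.48%, of which 0.594% higher and 0.89% lower) or in voom. The main fit shares 1 spread per gene over the 3 groups, so the spread within VO enters these p-values. At an unadjusted p of 0.05 there were 6 lincRNAs (4.48%, over all genes 3.48%) without VO 3. There were 23 (17.2%, over all genes 25.8%) with library weights and 9 (6.72%, over all genes 4.17%) with only CsA and Sham in the fit. The groups did not overlap for 12 lincRNAs (8.96%, over all genes 9.74%), 7 higher (over all genes 4.8%) and 5 lower (4.94%). The median log2 difference was 0.00 with 67 of 134 above 0 (over all genes 50.3%), and none reached a log2 difference of 1 (over all genes 0.326%). The smallest p values belonged to Gm29107 (log2 -0.34 ± 0.16), Gm38399 (-0.55 ± 0.259), 4632428C04Rik (-0.28 ± 0.135), AC129328.1 (0.34 ± 0.184), Gm43050 (-0.45 ± 0.247) and 2010320M18Rik (-0.40 ± 0.221), all with a limma adjusted p of 1. For 4632428C04Rik, AC129328.1 and 2010320M18Rik the CsA and Sham libraries did not overlap.

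Mature microRNAs lie within an exon of 4 of the lincRNAs, which are named for this position, with their values seen. A microRNA is cut from a hairpin in its host transcript, so the level of the host does not give the level of the microRNA. The 7 mature sequences (RefSeq, GRCm38.p6) have 7 different seeds, in capitals, and are shown to tell which families the hosts carry.
mmu-miR-1839-5p: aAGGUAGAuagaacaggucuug
mmu-let-7d-5p: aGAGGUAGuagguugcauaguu
mmu-let-7d-3p: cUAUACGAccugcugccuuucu
mmu-miR-101a-5p: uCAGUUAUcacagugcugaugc
mmu-miR-101a-3p: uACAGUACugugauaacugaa
mmu-miR-30c-5p: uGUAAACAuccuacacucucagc
mmu-miR-30c-2-3p: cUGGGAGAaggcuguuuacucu

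6720427I07Rik hosts let-7d, whose family holds back growth genes. It stood at 2.74, 3.03 and 1.95 FPKM in Sham, 6.17, 3.51 and 5.78 FPKM in VO and 3.43, 3.76 and 3.21 FPKM in CsA. VO and Sham did not overlap, and the log2 difference was 0.77 ± 0.198 (limma adjusted p = 0.0536) or 0.42 ± 0.204 with the GC trend removed. Gm27028, the host of miR-30c-2 and 1793 bases upstream of Gm29107 on the same strand, stood at 3.09, 2.52 and 2.32 FPKM in Sham, 2.04, 0.777 and 0 FPKM in VO and 0.840, 2.43 and 2.67 FPKM in CsA. Its VO libraries lay below Sham (log2 -1.05 ± 0.384, adjusted p = 0.111), where those of Gm29107 lay above. The VO mean of Gm27028 was under 1 FPKM, so Sham and CsA carried it past the threshold of the list.

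The hosts of miR-101a and miR-1839 did not pass in any comparison. E130102H24Rik, host of miR-101a, had means of 2.05 ± 0.489, 1.39 ± 0.0421 and 2.76 ± 1.85 FPKM in Sham, VO and CsA (SD, n = 3), with CsA 2 at 4.84 FPKM. 2900076A07Rik, host of miR-1839, had means of 7.91 ± 0.415, 6.52 ± 1.31 and 7.67 ± 1.49 FPKM.

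Most lincRNAs had a protein-coding gene close by. The median gap was 6420 bases, with 13 overlapping and 39 within 1000 bases. The nearest coding gene was itself tested for 113 of 134, and VO minus Sham had the same sign in lincRNA and neighbour for 63 of 113 (55.8%). Of 20 pairs that start within 1000 bases of each other in opposite directions, 11 had the same sign. Taking the nearest gene on the opposite strand gave 54 of 105 (51.4%). For the 6 that passed, the nearest neighbours were Ogfrl1 (72349 bases from Gm29107), Zfp960 (89956 from BC002059), Hes1 (42954 from 4632428C04Rik), Pfn1, Elk3 and Nav1, and none of these passed the test (limma adjusted p from 0.0732 to 0.998).

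The nearest neighbour itself passed beside 9 lincRNAs, 4 times as higher in VO and 5 times as lower, and never beside a lincRNA that passed. That is 7.96% of the tested neighbours, with Lsm8 counted for a pair of lincRNAs, where 4.76% of all genes passed. The cardiac transcription factor gene Tbx5 starts 748 bases from Gm43050 in the opposite direction. Gm43050 stood at 3.30, 1.69 and 3.30 FPKM in Sham, 0.872, 1.66 and 0.496 FPKM in VO and 1.79, 1.90 and 1.38 FPKM in CsA (VO minus Sham log2 -0.91 ± 0.247, limma adjusted p = 0.0575). Tbx5 stood at 10.8, 5.48 and 10.2 FPKM, 4.03, 3.63 and 1.64 FPKM and 4.93, 5.14 and 4.53 FPKM in the same libraries and fell in VO (log2 -1.26 ± 0.283, adjusted p = 0.0408). In both genes Sham 1 and Sham 3 were above Sham 2, and CsA 3 was the lowest CsA library. Sham 1 and Sham 3 held the high atrial sums, and CsA 3 held the highest of the CsA group. Tbx5 is expressed in atria, and the part of atrial tissue in these values was not tested.

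Gm34030 lies 7059 bases from Hand2, a transcription factor gene of the right ventricle. Hand2 fell in VO, at 12.0, 11.7 and 13.3 FPKM in Sham, 3.60, 5.41 and 5.82 FPKM in VO and 6.81, 10.6 and 11.4 FPKM in CsA (log2 -1.18 ± 0.21, limma adjusted p = 0.0382). Gm34030 stood at 3.62, 2.77 and 1.52 FPKM in Sham, 1.37, 1.64 and 1.45 FPKM in VO and 2.09, 1.59 and 2.07 FPKM in CsA, and did not pass (log2 -0.51 ± 0.21, adjusted p = 0.146). Opposite signs also occurred: Lsm8, a gene of RNA splicing, rose in VO (log2 1.01 ± 0.207, adjusted p = 0.0404), while Gm20186, which starts 372 bases from it in the opposite direction, was at -0.46 ± 0.21 (adjusted p = 0.177). These pairs are named for the neighbour's call, after the values were seen.

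Genes that act on these RNAs were counted in lists, with 275 of 13477 genes (2.04%) higher in VO. Of 19 paraspeckle proteins, the partners of Neat1, 3 rose, none fell and 16 were above 0, with a median log2 difference of 0.47 (0.28 with the GC trend removed). These were the RNA-binding protein Tardbp, whose mean went from 12.1 ± 0.884 in Sham to 26.1 ± 3.18 FPKM in VO (SD, n = 3 each) with an adjusted p of 0.0382 in limma, the matrix protein Matr3 (log2 0.79 ± 0.134) and Rbm12 (log2 0.74 ± 0.141). Of 20 tested genes of the nuclear exosome, which degrades many noncoding RNAs, 3 rose, none fell and 16 were above 0, with a median of 0.34. Exosc9 stood at 5.84 ± 0.561 against 3.004 ± 0.463 FPKM (log2 0.78 ± 0.14), Rbm7 at log2 0.61 ± 0.126 and Exosc8 at 0.71 ± 0.163 (adjusted p from 0.0382 to 0.0451).

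The other lists had fewer calls. Of 13 nuclear speckle proteins, Srsf3 rose (log2 1.29 ± 0.259, limma adjusted p = 0.0396), and the median was 0.16, or -0.03 with the GC trend removed. Another list held 11 tested genes for enzymes, or their subunits, that act on the ends of Malat1, Neat1 or transfer RNAs. Of these Rpp30, a subunit of RNase P, rose (log2 0.91 ± 0.212, limma adjusted p = 0.0456), with a median of 0.30 or 0.01 with the GC trend removed. None of 10 microRNA processing genes and none of 4 Pumilio and Norad partners passed (medians 0.03 and 0.22). In CsA against VO and in CsA against Sham, 0 genes of these 6 lists passed, as did 0 of all genes, and with the GC trend removed 0 genes passed in VO against Sham.

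The lincRNAs were also read library by library. Their fragments made up 0.201%, 0.198% and 0.191% of the Sham libraries, 0.275%, 0.229% and 0.225% of the VO libraries and 0.214%, 0.203% and 0.186% of the CsA libraries. Every VO library was above every Sham and CsA library, with VO 1 the highest. Of the fragments outside mitochondrially encoded genes, the lincRNAs made up 0.258%, 0.261% and 0.256% in Sham, 0.359%, 0.299% and 0.253% in VO and 0.291%, 0.275% and 0.248% in CsA. On that base VO 3, whose mitochondrial share was low, lay below all Sham libraries, and VO 1 and VO 2 lay above all others. Cyrano alone gave 14573 of the 42225 lincRNA fragments of VO 1. No test was made of this share.

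VO 1 was the highest of the 9 libraries for 38 lincRNAs (28.4%, over all genes 21.2%) and VO 3 for 35 (26.1%, over all genes 27.3%). VO 3 was the lowest for 31 (23.1%, over all genes 25.99%) and VO 1 for 22 (16.4%, over all genes 22.2%). CsA 3 was the lowest for 20 lincRNAs (14.9%), where it was the lowest for 4.96% of all genes. CsA 2 was the lowest for 4 (2.99%, over all genes 8.93%) and the highest for 18 (13.4%, over all genes 8.87%). CsA 3 was also the CsA library high in atrial markers. Sham 1 and Sham 3, with higher atrial sums, were the lowest for 6.72% and 9.70% of lincRNAs (over all genes 10.2% and 11.6%). The part of atrial tissue in this was not tested.

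**Figure D5:**
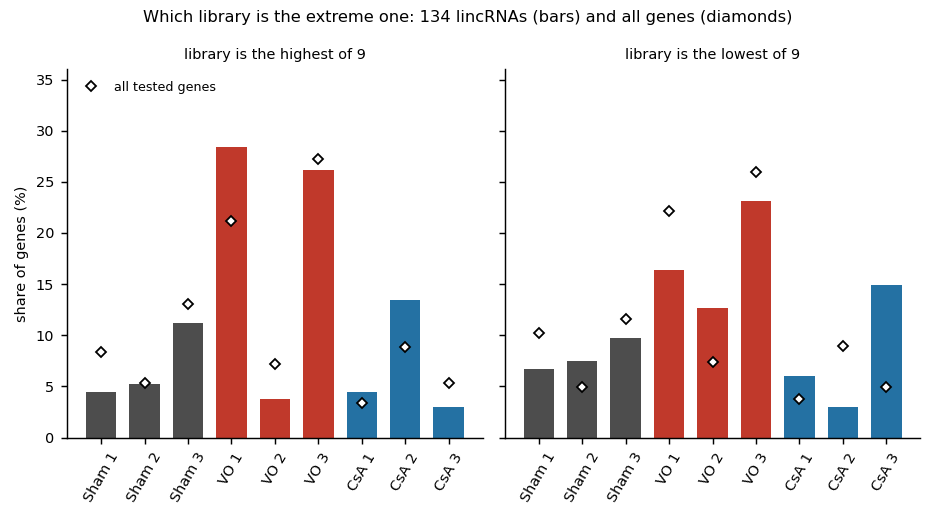
Share of genes in percent (y axis, from 0) for which each library (x axis) is the highest (left) or the lowest (right) of the 9; bars are the 134 lincRNAs and white diamonds the 13477 tested genes. VO 1 and VO 3 are most often the highest library, and CsA 3 is the lowest library for 14.9% of lincRNAs against 4.96% of all genes.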

How the data were processed

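The deposited table gives FPKM per gene and library, as the authors computed it, with gene coordinates in GRCm38. Per the labels' protocols, RNA was extracted with Trizol and 1 µg went into a NEBNext Ultra library. The submitters' processing notes name, without a role, DESeq2 1.20.0, featureCounts 1.5.0-p3, GATK 3.7, StringTie 1.3.3b and HISAT2 2.0.5. The annotation release and any use of strand are not given in the sources used here.

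A mean of 0.5 FPKM or more (13477 of 54532 genes) was needed to be tested on log2(FPKM + 1) with limma 3.58.1 in R 4.3.3: all 9 libraries in 1 fit, a mean-variance trend, two-sided tests and Benjamini-Hochberg adjustment over all tested genes at 0.05. A fold on this scale understates the change of low genes. Whole fragments were recovered from the steps of the FPKM values (100% of values within 0.1 of a whole number), and voom was run on them as an alternative. 

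GC content, exons and transcripts came from the longest transcript in GENCODE M21 (GRCm38), which held all 134 lincRNAs, 130 with the deposited coordinates. The GC alternative removed from each library a loess trend on GC (span 0.3). Promoters and microRNAs came from RefSeq (GRCm38.p6). The fit was tested on simulated data with normal noise of the same spread per gene in all 9 libraries. These data held no GC trend and no library set apart, so the test does not bear on either. Tables and figures were made with Python 3.11.15, pandas 2.3.3 and matplotlib 3.10.9.

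The members and the lists were chosen with earlier results of these data known. Named were, per comparison, every lincRNA past the test or up to 6 with the smallest p, the 8 highest, a list of described noncoding RNAs, the nearest coding neighbours of the first set, and the 2 lincRNAs nearest the threshold on each side. The replicates differed by more than sampling noise in every pair of a group, so none was merged. Chi-square per degree of freedom was 200.4 and 146.4 for VO 3 with VO 1 and VO 2, and 12.4 to 29.1 for the other pairs. The labels do not say whether replicate numbers pair the samples, and the main fit used no pairing. Alternatives were other pseudocounts, filters, scalings, variance models, library weights, a block, covariates and each library left out. One neighbouring gene is not reported here.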

Additional observations from a re-analysis of the deposited data

How the results depend on the processing

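The lincRNAs had a median of 437 fragments over the 9 libraries, and the size of difference this depth can show was not tested. The count of lincRNAs past the test in VO against Sham (6) was 0 with no filter on low values, with the GC trend removed, with only the groups compared and with the Myl7 level as a covariate (over all genes 0% in each). With the GC trend removed and VO 3 left out it was 0 too (over all genes 0.00743%). It was also 0 with the 3 Myl7-rich libraries left out, which leaves Sham with 1 library, assumed to vary like the other groups, so this 0 says nothing about stability. Leaving out 1 library in turn gave 0 to 17 (over all genes 0% to 15.1%). Of 27 settings, 14 gave at least 1 and 13 gave 0. It was 9 with a filter at 1 FPKM, 6 of them the same (6.72%, over all genes 7.38%), and 9 with quantile normalization, 5 of them the same (6.72%, over all genes 6.93%). With voom it was 4, 3 of them the same (2.99%, over all genes 6.74%; Eprn was added). In both CsA comparisons 0 lincRNAs passed in all 27 settings, with a smallest adjusted p of 0.0777 to 0.693 for CsA against VO and of 0.114 to 1 for CsA against Sham. The share over all genes was at most 0.00743% for CsA against VO and 0.0223% for CsA against Sham.

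Gm29107 turned from 1.01 to -0.0501 in VO against Sham with the GC trend removed and VO 3 left out; the cause was not tested. The other 5 that passed kept their direction in all 27 settings. With a pseudocount of 0.1 and with voom the log2 differences of low RNAs were larger, -2.81 and -3.87 for Gm38399 and -0.98 and -1.02 for 4632428C04Rik. For Gm32688, which passed in neither, the difference was -2.41 with voom. Of 69 values of named lincRNAs that did not pass, 25 changed sign in at least 1 setting and 7 passed in at least 1.

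The replicate number as a block gave 0 lincRNAs past the test (over all genes 0.00742%), and 0 with the GC trend removed as well (over all genes 0%). Deviations of same-numbered samples had correlations of -0.04, 0.06 and -0.04 between VO and Sham, 0.24, -0.09 and 0.05 between CsA and VO, and -0.21, -0.40 and -0.25 between CsA and Sham. These exceeded the best correlation with another number for number 2 in VO and Sham (0.06 against 0.03) and number 1 in CsA and VO (0.24 against -0.02), and in no other case. The labels do not say that a number marks a shared litter or day.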

Other observations

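Below the threshold, 83 lincRNAs had a mean from 0.5 to under 1 FPKM and entered the same fit, X and Y chromosomes left out. In VO against Sham 1 was higher and 1 lower in limma (2.41%, over all genes 4.76%), with 49 of 83 above 0 (59.0%, over all genes 50.4%) and a median log2 difference of 0.06. A330102I10Rik was at 0.387, 0.325 and 0.392 FPKM in Sham, 1.06, 0.919 and 1.41 FPKM in VO and 0.568, 0.547 and 0.430 FPKM in CsA, with no overlap between VO and the other groups. Gm36535 was at 1.78, 0.818 and 1.88 FPKM in Sham, 0.204, 0.504 and 0.0943 FPKM in VO and 0.954, 1.052 and 0.743 FPKM in CsA, with VO the lowest in every library. Both were named after their values were seen. A330102I10Rik passed the filter of 0.5 FPKM only through VO, with a mean of 0.368 FPKM in Sham, and Gm36535 only through Sham and CsA, with a mean of 0.268 FPKM in VO. In the CsA comparisons 0 of the 83 passed. The primary transcript of the miR-17 cluster, Mir17hg, was at 0.698, 0.691 and 0.895 FPKM in Sham, 1.92, 1.29 and 0.394 FPKM in VO and 0.616, 0.526 and 0.517 FPKM in CsA, where VO 3 was the lowest of the 9 libraries and VO 1 the highest.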
